A study of Mus musculus with 6 samples.

Results

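White blood cells use a set of signalling adaptors, kinases and actin regulators, some in most lineages and some in only a few, that many other cells of the body lack. The expression of 39 such genes was followed in stromal cells sorted from mouse femurs. The set was drawn up by name, with the contrast between CXCL12-deficient and control libraries already known and with several of its genes seen among the strongest decreases, so the values of that contrast are given as a description. Of the 39 genes, 38 were matched by symbol to the count table of 17128 genes, and Themis2 was not matched. All 38 passed the filter on low counts, and the smallest count of any of them in any library was 51.

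The 3 CXCL12-deficient libraries were made from cells positive for both GFP and tdTomato, sorted from mice that carried Col2a1-cre with the alleles Cxcl12(GFP/fl) and R26R(tdTomato/+). The 3 control libraries were made from GFP+ cells of mice with the same Cxcl12(GFP/fl) and R26R(tdTomato/+) alleles and without the cre. All mice were at postnatal day 21, and in all of them GFP replaced one Cxcl12 allele and the other was floxed. The cre is driven from Col2a1, a gene of cartilage and its precursors, and the tdTomato reporter marks cells in which it acted and their descendants, so the cre, the second colour of the gate and the deletion cannot be told apart in this design. About 20000 cells per library were sorted after collagenase digestion of bone and marrow with the distal growth plates removed, and nothing in the labels ties a library to its own animal. The p-values then measure only the spread between these libraries, which may be technical. Cxcl12 had 1423, 1280 and 1163 CPM (counts scaled to library size) in CXCL12-deficient libraries and 3876, 3673 and 3694 CPM in controls. Library totals ran from 20133299 to 28009257 counts, so that 1 read was worth 0.0357 to 0.0472 CPM.

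These proteins act in a chain. At the membrane, receptors of leukocytes signal through partner chains with immunoreceptor tyrosine-based activation motifs (ITAMs), which are phosphorylated by kinases of the Src family and then bound by Syk. Adaptor proteins gather phospholipase C, Btk and the exchange factor Vav1 on the activated receptor, and Rac GTPases pass the signal on to the actin network beneath the membrane. Phosphatases of proteins and of lipids set the threshold. Stromal cells of the marrow, which make CXCL12 and anchor blood-forming cells, are not known for this machinery and use broadly expressed relatives of many of its parts.

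Of the 38 genes, 37 were lower in every CXCL12-deficient library than in every control library, where 13.9% of all 13926 tested genes were separated in this way. By the quasi-likelihood F-test of edgeR 35 of the 38 were lower at an adjusted p below 0.05, beside 3.94% of all tested genes, and 0 were higher, beside 0.639%. DESeq2 and limma-voom also called 0 of them higher, and edgeR had 0 higher at an unadjusted p below 0.05. Nothing is read from these shares, since the genes were picked with this contrast known. The count of 35 was 22 without control replicate 2 and 13 without control replicate 3, and the number of all genes called lower was 154 and 74 in the same refits. The median log2 fold change of the 38 genes was -2.10, where that of all tested genes was 0.03, and 25 of them were below -2 and none below -3. Summed, they had 1998, 1619 and 1127 CPM in CXCL12-deficient libraries and 4406, 5844 and 6975 CPM in controls. The sum in CXCL12-deficient libraries came to 27.5% of that in controls. In a bulk sort, fewer cells of a type and less RNA per cell cannot be told apart.

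**Figure D1:**
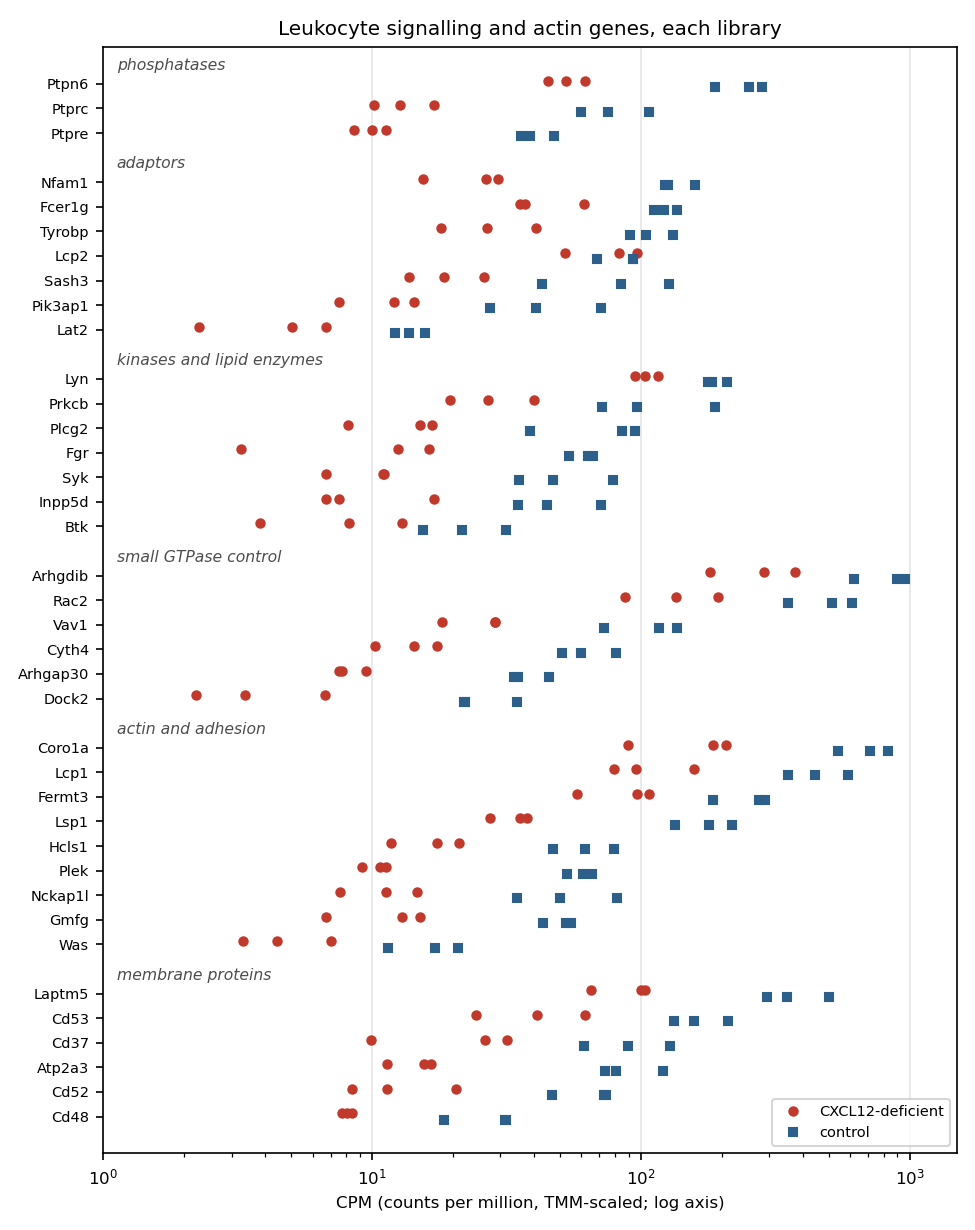
CPM of each of the 38 genes in each library on a log axis, grouped by role, with red circles for CXCL12-deficient and blue squares for control libraries. The red points lie left of the blue points for every gene except Lcp2, whose points mix.

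Promoters of these genes had features that took no part in the choice of genes. RefSeq promoter windows of GRCm38.p6 (250 bases before to 50 after an annotated start) were at hand for 32 of the 39 genes, with 43 windows in all, and not for Cd52, Lat2, Lsp1, Lyn, Nckap1l, Rac2 and Tyrobp. The ratio of observed to expected CpG pairs had a median of 0.31 in these windows, against 0.91 in 22 windows of 18 broadly expressed relatives and 0.57 in 21263 windows of protein-coding genes. It lay below 0.6 in 79.1% of the genes' windows, in 27.3% of the relatives' windows and in 52.3% of windows of protein-coding genes. The core GGAAGT bound by factors of the ETS family, searched on both strands, was found in 21 of 43 windows (48.8%), in 5 of 22 windows of the relatives (22.7%) and in 24.8% of windows of protein-coding genes. A second motif of the same length, GAGGAA, of the type bound by the ETS factor PU.1 of myeloid and B cells, was found in 46.5%, 31.8% and 27.4% of the same windows on either strand. Close to the set were 97 windows of 65 further leukocyte signalling genes, from the list described below. Their median CpG ratio was 0.36, and they held GGAAGT in 46.4% and GAGGAA in 44.3%. These features were thus not particular to the 39 genes. Windows of one gene can overlap, the motifs can share letters, and a match describes the letters and no binding.

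**Figure D2:**
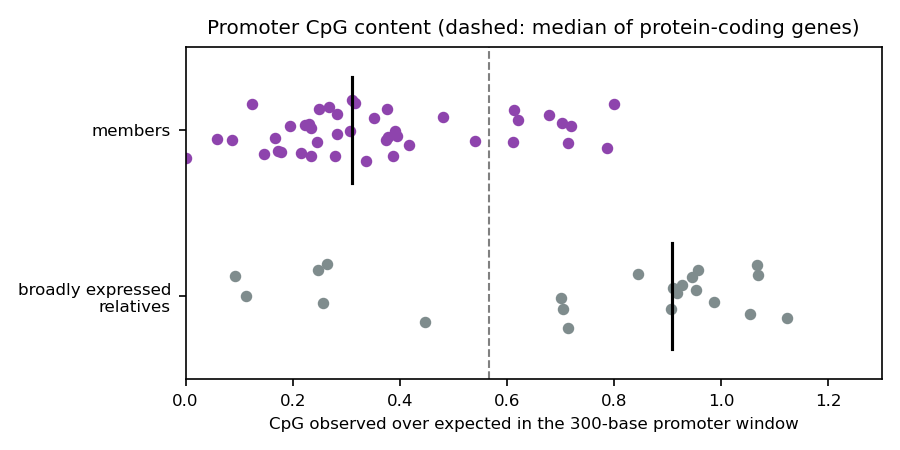
Each point is 1 promoter window, with its ratio of observed to expected CpG pairs on the x axis. Black bars mark the medians, 0.31 for the leukocyte genes and 0.91 for their broadly expressed relatives, and the dashed line marks the median of protein-coding genes, 0.57.

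The 2 motifs shared letters on the same strand in 5 of the 43 windows (11.6%), those of Cd37, Cd53, Cyth4, Inpp5d and Vav1, in 0 of the 22 windows of relatives and in 3.13% of windows of protein-coding genes. Below are the 150 bases before the start of Vav1, Inpp5d and Cd37, shown since the fused motif lay within the last 25 bases before the start in each, and those of Was and of its relative Wasl, shown for their contrast in CpG. They come from chr17:57278950-57279099 on the plus strand, chr1:87620162-87620311 on the plus strand, chr7:45238840-45238989 on the minus strand, chrX:8090492-8090641 on the minus strand and chr6:24664996-24665145 on the minus strand of GRCm38.p6 and are written 5′ to 3′ along the gene's own strand. Capitals mark the letters of either motif, read on either strand.
Vav1: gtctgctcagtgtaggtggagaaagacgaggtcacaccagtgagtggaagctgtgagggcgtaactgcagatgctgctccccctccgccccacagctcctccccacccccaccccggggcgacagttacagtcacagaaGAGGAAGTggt
Inpp5d: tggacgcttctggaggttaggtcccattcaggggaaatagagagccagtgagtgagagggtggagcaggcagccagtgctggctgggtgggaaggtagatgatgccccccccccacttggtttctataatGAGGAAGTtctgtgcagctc
Cd37: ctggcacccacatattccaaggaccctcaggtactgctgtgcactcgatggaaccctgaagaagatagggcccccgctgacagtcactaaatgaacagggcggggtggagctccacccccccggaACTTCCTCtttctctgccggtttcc
Was: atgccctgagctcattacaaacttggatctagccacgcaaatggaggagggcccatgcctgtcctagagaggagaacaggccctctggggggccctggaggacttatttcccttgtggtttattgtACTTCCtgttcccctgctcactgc
Wasl: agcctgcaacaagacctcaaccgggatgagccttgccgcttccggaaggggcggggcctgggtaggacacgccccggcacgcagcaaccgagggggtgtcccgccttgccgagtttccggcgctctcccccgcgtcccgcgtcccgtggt
The fused motif began 11 bases before the start of Vav1 and 20 before that of Inpp5d, and in Cd37 it lay on the opposite strand from base 25 to base 18. In Was the ETS core lay on the opposite strand from base 24 to base 19 before the start. The Was stretch held 1 CpG pairs and the Wasl stretch 17, and Wasl had neither motif in the 250 bases before its start.

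Summed over their genes, the phosphatases in CXCL12-deficient libraries came to 21.1% of their control sum, the lowest of the 6 roles, against 35% for the adaptors, the highest. Ptprc encodes CD45, the receptor phosphatase that keeps Src kinases of leukocytes ready to act, and had 12.7, 16.9 and 10.2 CPM in CXCL12-deficient libraries against 59.8, 75.4 and 107 CPM in controls, a log2 fold change of -2.61 ± 0.28 (SE). Ptpn6, the phosphatase SHP-1 that inhibitory receptors recruit, had 61.7, 52.7 and 45.1 CPM in CXCL12-deficient libraries against 188.5, 253 and 282 CPM in controls. Its log2 fold change was -2.18 ± 0.20. Ptpre, another receptor-type phosphatase, had 11.2, 9.99 and 8.53 CPM in CXCL12-deficient libraries against 38.5, 35.9 and 47.3 CPM in controls (-2.03 ± 0.21). For each of the 3 the lowest control library was over 3 times the highest CXCL12-deficient library.

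Adaptors included the exception. Lcp2, which encodes SLP-76, the scaffold that links Syk-family kinases to phospholipase C and Vav1, had 97.1, 52.2 and 82.8 CPM in CXCL12-deficient libraries and 68.9, 93.5 and 93.3 CPM in controls. The groups overlapped, the log2 fold change was -0.14 ± 0.24, and with 1 library left out it ran from -0.33 to 0.08. Its share of the summed CPM of the 38 genes was 5.14% in CXCL12-deficient libraries and 1.5% in controls. In GENCODE M21, 282 exonic bases of Lcp2 are shared with the antisense gene 4930469K13Rik, and without a stated strand setting reads of the pair cannot be told apart.

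The ITAM chains did follow the rest. Fcer1g, the signalling chain of activating Fc receptors, had 61.3, 37.2 and 35.3 CPM in CXCL12-deficient libraries against 112, 122 and 136 CPM in controls (log2 fold change -1.46 ± 0.23). Tyrobp, or DAP12, the partner chain of activating receptors of myeloid and NK cells, had 40.6, 26.8 and 18.0 CPM in CXCL12-deficient libraries against 91.3, 131 and 104 CPM in controls (-1.93 ± 0.29). Nfam1, a receptor with its own ITAM, stood at 29.4, 26.6 and 15.5 CPM in CXCL12-deficient libraries against 127, 123 and 159 CPM in controls (-2.51 ± 0.25). Both partner chains were reduced less than Nfam1, by 2.76-fold and 3.82-fold against 5.71-fold, and these differences between genes were not tested. The remaining adaptors were Sash3 of lymphocytes (-2.13 ± 0.39), Pik3ap1, which brings phosphoinositide 3-kinase to receptors (-2.04 ± 0.37), and Lat2, a membrane anchor of signalling complexes (-1.57 ± 0.40). Lat2 had at most 6.72 CPM in a CXCL12-deficient and 15.8 CPM in a control library, and 952 of its exonic bases are shared with Rfc2 on the opposite strand.

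Kinases and lipid enzymes held the other gene with a small difference. Lyn, a Src-family kinase that both starts and restrains receptor signals, had 116, 95.4 and 104 CPM in CXCL12-deficient libraries against 178, 184 and 209 CPM in controls. The groups did not overlap, and at -0.86 ± 0.15 its log2 fold change was nearer to 0 than that of any of the 38 genes other than Lcp2. Lyn took 6.97% of the summed CPM in CXCL12-deficient libraries and 3.40% in controls. Its closest relative in the set, Fgr, behaved differently, with 16.2, 12.5 and 3.24 CPM in CXCL12-deficient libraries against 63.8, 53.8 and 66.1 CPM in controls (-2.52 ± 0.47).

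Downstream of them, Syk, the kinase that docks on ITAMs, had 11.0, 11.1 and 6.75 CPM in CXCL12-deficient libraries against 35.1, 47.1 and 78.9 CPM in controls (-2.48 ± 0.34). Btk, the kinase of B cells and myeloid cells that is lost in X-linked agammaglobulinaemia, had 8.16, 12.9 and 3.82 CPM in CXCL12-deficient libraries against 21.5, 15.5 and 31.5 CPM in controls (-1.46 ± 0.44). Its groups came closest of those that did not overlap, since the lowest control library was 1.20 times the highest CXCL12-deficient library. Plcg2, the phospholipase that Btk activates, had 16.7, 15.1 and 8.12 CPM in CXCL12-deficient libraries against 38.6, 85.2 and 95.2 CPM in controls (-2.46 ± 0.38). Prkcb, a protein kinase C that responds to its product, had 40.1, 26.9 and 19.5 CPM in CXCL12-deficient libraries against 71.6, 96.3 and 188.5 CPM in controls (-2.04 ± 0.38). Inpp5d, the lipid phosphatase SHIP1 that opposes them, had a log2 fold change of -2.27 ± 0.40, so genes of activating and of inhibiting steps were lower side by side.

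All 6 regulators of small GTPases were lower in each CXCL12-deficient library. Arhgdib, which holds small GTPases in the cytosol, had the highest control level per kilobase of exon of the 38 genes, 485 CPM per kilobase, where Dock2 had the lowest, 2.30. Arhgdib had 376, 287 and 180.3 CPM in CXCL12-deficient libraries against 621, 964 and 898 CPM in controls (-1.56 ± 0.28). Rac2, the Rac GTPase of blood cells, had 194, 135 and 86.9 CPM in CXCL12-deficient libraries against 352, 513 and 611 CPM in controls (-1.83 ± 0.31). Vav1, its exchange factor downstream of Syk, had 28.6, 28.6 and 18.2 CPM in CXCL12-deficient libraries against 73.0, 116 and 136 CPM in controls (-2.11 ± 0.27). The lowest ratio of all 38 genes belonged to Dock2, the Rac exchange factor that lymphocytes and neutrophils need to migrate towards chemokines. Dock2 had 2.21, 6.67 and 3.37 CPM in CXCL12-deficient libraries against 22.2, 22.03 and 34.5 CPM in controls, a log2 fold change of -2.68 ± 0.42 that ran from -3.23 to -2.38 with 1 library left out. Arhgap30, a GTPase-activating protein, and Cyth4, an exchange factor for Arf GTPases, were at -2.20 ± 0.22 and -2.19 ± 0.26.

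Among the 9 genes of the actin network and of adhesion the log2 fold changes ran from -2.52 to -1.52. Coro1a, the coronin of leukocyte actin, had 208, 186 and 89.7 CPM in CXCL12-deficient libraries against 543, 712 and 827 CPM in controls (-2.11 ± 0.31). Lcp1, the actin-bundling L-plastin, had 157, 95.8 and 79.2 CPM in CXCL12-deficient libraries against 353, 445 and 592 CPM in controls (-2.06 ± 0.29). Fermt3, the kindlin that switches on integrins of blood cells and platelets, had 96.9, 107 and 57.6 CPM in CXCL12-deficient libraries against 185, 274 and 289 CPM in controls (-1.52 ± 0.26). No library of one group reached into the other for any of these genes. Was, the activator of the Arp2/3 complex that is mutated in Wiskott-Aldrich syndrome, stood at 4.93 ± 1.91 CPM in CXCL12-deficient libraries and 16.5 ± 4.79 CPM in controls (SD, n = 3 each). The log2 fold changes of the others were -2.52 for Plek, a substrate of protein kinase C, -2.40 for the actin-binding Lsp1, -2.31 for Nckap1l of the WAVE complex, -2.12 for Gmfg, which prunes actin branches, and -1.90 for Hcls1, the cortactin of blood cells.

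The membrane proteins in CXCL12-deficient libraries summed to 23.1% of the control sum. Laptm5, a lysosomal protein that limits surface receptors of lymphocytes, had 100.3, 103 and 65.0 CPM in CXCL12-deficient libraries against 295, 351 and 499 CPM in controls (-2.09 ± 0.25). Cd53, a tetraspanin of leukocytes, had 62.1, 41.0 and 24.3 CPM in CXCL12-deficient libraries against 132, 157 and 211 CPM in controls (-1.97 ± 0.33). Cd37, another tetraspanin, had 31.8, 26.2 and 9.86 CPM in CXCL12-deficient libraries against 61.5, 89.3 and 129 CPM in controls (-2.04 ± 0.42). Atp2a3, the calcium pump of the endoplasmic reticulum that blood cells use, had the second lowest ratio of all, with 15.6, 16.5 and 11.3 CPM in CXCL12-deficient libraries against 73.3, 80.9 and 121 CPM in controls (-2.66 ± 0.25). The small surface proteins Cd52 and Cd48 were at -2.26 ± 0.34 and -1.74 ± 0.26.

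Libraries of one group differed from each other in a common direction. Control replicate 3 was the highest control library for 32 of the 38 genes and control replicate 1 the lowest for 31, while CXCL12-deficient replicate 3 was the lowest of its group for 32 and replicate 1 the highest for 26. The spread over the controls was not the same for all genes. The highest control library exceeded the lowest by 2.99 times for Sash3, 2.63 times for Prkcb, 2.57 times for Pik3ap1 and 2.46 times for Plcg2, against 1.17 times for Lyn, 1.21 for Fcer1g and 1.23 for Fgr. For 30 of the 38 genes the share of the summed CPM differed between the groups by less than 1.5 times. The share was lower by more than that for Ptprc, Nfam1, Fgr, Dock2, Plek and Atp2a3, and higher by more than that for Lcp2 and Lyn.

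The summed markers of several blood lineages were lower in the same libraries. The 10 neutrophil markers had 2824 to 7021 CPM in CXCL12-deficient libraries and 15080 to 20520 CPM in controls, and 9 of the 10 were called lower by edgeR. Relative to the sum of the 38 genes the neutrophil sum was 3.51, 2.75 and 2.51 in CXCL12-deficient libraries and 3.42, 3.51 and 2.83 in controls, ranges that overlap. This was not particular to neutrophils. The same ratio also overlapped for the B lineage, T and NK, dendritic, mast cell, endothelial and osteoblast lists. It did not for the monocyte and macrophage, megakaryocyte, erythroid, osteoclast and reticular stroma lists. The 9 B lineage markers had 78.6 to 243 CPM in CXCL12-deficient libraries and 324 to 918 CPM in controls, with 2 called lower. The 9 T and NK cell markers had 9.72 to 24.2 CPM in CXCL12-deficient libraries and 40.7 to 77.4 CPM in controls, with Nkg7 the highest of them in each CXCL12-deficient library, and Cd3e had no read in CXCL12-deficient replicates 1 and 2. Of 8 T and NK markers tested, 2 were called lower.

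Sums of 4 more lists were also lower in every CXCL12-deficient library than in every control library. The 10 monocyte and macrophage markers had 136 to 233 CPM in CXCL12-deficient libraries and 274 to 368 CPM in controls. Of the 10, Ly6c2, Ccr2 and Csf1r were called lower. Much of the difference between the sums lay in Ly6c2, with 27.6, 31.4 and 15.4 CPM in CXCL12-deficient libraries against 104, 132 and 125 CPM in controls. The median log2 fold change of the 10 was -0.25. It was positive for 5, none of them called, which were C1qb (0.78), C1qc (0.78), C1qa (0.46), Mrc1 (0.285) and Cd163 (0.04). The 7 dendritic cell markers had 50.6 to 75.2 CPM in CXCL12-deficient libraries and 149 to 208 CPM in controls, 2 of them called lower. Most of that sum was Irf8, with 47.6, 48.9 and 26.55 CPM in CXCL12-deficient libraries and 115, 113 and 151 CPM in controls. Zbtb46 alone of the list had a positive log2 fold change (0.30) and was not called. The 8 megakaryocyte markers had 9.72 to 19.7 CPM in CXCL12-deficient libraries and 86.3 to 286 CPM in controls, and the 8 endothelial markers 11.8 to 21.6 CPM in CXCL12-deficient libraries and 73.7 to 138 CPM in controls, with 5 of 8 called lower in each list. Gp1bb, a called megakaryocyte marker, shares 1902 of its 2087 exonic bases in GENCODE M21 with Sept5 on the same strand. Reads of these bases cannot be told apart. Without control replicate 2 or 3 the number of all markers called lower was 13 or 8 in place of 29. The part of these cell types in the differences of the 38 genes was not tested.

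Sums of the erythroid, osteoclast, osteoblast and mast cell lists overlapped between the groups. The 7 erythroid markers had 1297 to 4474 CPM in CXCL12-deficient libraries and 1830 to 2930 CPM in controls. Alas2 was the highest of them in each library, with 3154, 2169 and 571 CPM in CXCL12-deficient libraries and 985, 1088 and 1233 CPM in controls. Relative to the 38 genes the list stood at 2.24, 2.39 and 1.15 in CXCL12-deficient libraries and at 0.415, 0.443 and 0.42 in controls. The 38 genes were picked with this contrast known, so a list whose sum does not fall stands higher in this ratio. Nothing is read from it. The 5 osteoclast markers had 275 to 434 CPM in CXCL12-deficient libraries and 218 to 375 CPM in controls. Most of that sum was Ctsk, with 345, 273 and 244 CPM in CXCL12-deficient libraries and 295, 264 and 164 CPM in controls. Ctsk had a log2 fold change of 0.25, while the other 4 were negative. The median of the 5 was -1.09, none was called, and 2 had no read in at least 1 library. The 7 osteoblast markers had 6393 to 11940.0 CPM in CXCL12-deficient libraries and 3723 to 16160.0 CPM in controls, and the 6 mast cell and basophil markers 1.91 to 62.5 CPM in CXCL12-deficient libraries and 29.1 to 109.7 CPM in controls. The 10 markers of reticular stroma, the cell type of the sort, include the deleted gene Cxcl12 and had 7781 to 9206 CPM in CXCL12-deficient libraries and 7476 to 8238 CPM in controls. Without Cxcl12, a choice made after seeing the data, the other 9 had 7689, 6501 and 8043 CPM in CXCL12-deficient libraries and 4362, 4494 and 3782 CPM in controls. The groups of this sum did not overlap, all 9 had a positive log2 fold change, and Adipoq, Cxcl14 and Ebf3 were called higher by edgeR. No marker was called higher without control replicate 2, without control replicate 3 or without CXCL12-deficient replicate 1. The sum of stromal markers other than Cxcl12 was thus higher in the libraries in which the 38 genes were lower, and their part in that difference was not tested.

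**Figure D3:**
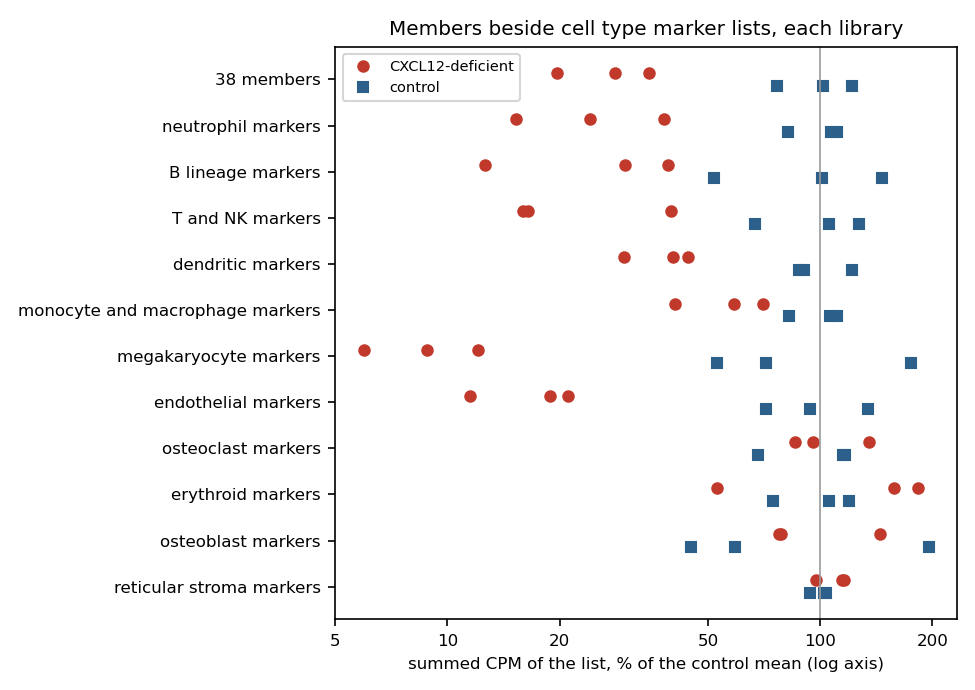
Summed CPM of the 38 genes and of the cell type marker lists (mast cells and basophils left out) in each library, as a percentage of the control mean on a log axis, with red circles for CXCL12-deficient and blue squares for control libraries. The red points of the 38 genes and of the neutrophil, B lineage, megakaryocyte and endothelial lists lie left of all blue points of their row, and those of the erythroid, osteoclast and osteoblast lists do not.

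Broadly expressed relatives of the same genes took no part in the choice of the set, and none of the 23 was called in either direction by edgeR, beside 4.57% of all tested genes. At an unadjusted p below 0.05, 1 was lower and 4 were higher. DESeq2 called 0 lower and 1 higher (Laptm4a), and limma-voom called none. Their median log2 fold change was 0.14, against -2.11 for their 23 partners, and 20 of the 23 lay within 0.5 of 0. The groups did not overlap for 6 of the 23, beside 25.6% of all tested genes in either direction. In each of the 23 pairs the relative had the higher log2 fold change. The difference within a pair was not tested, since 1 of its sides was chosen on this contrast.

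**Figure D4:**
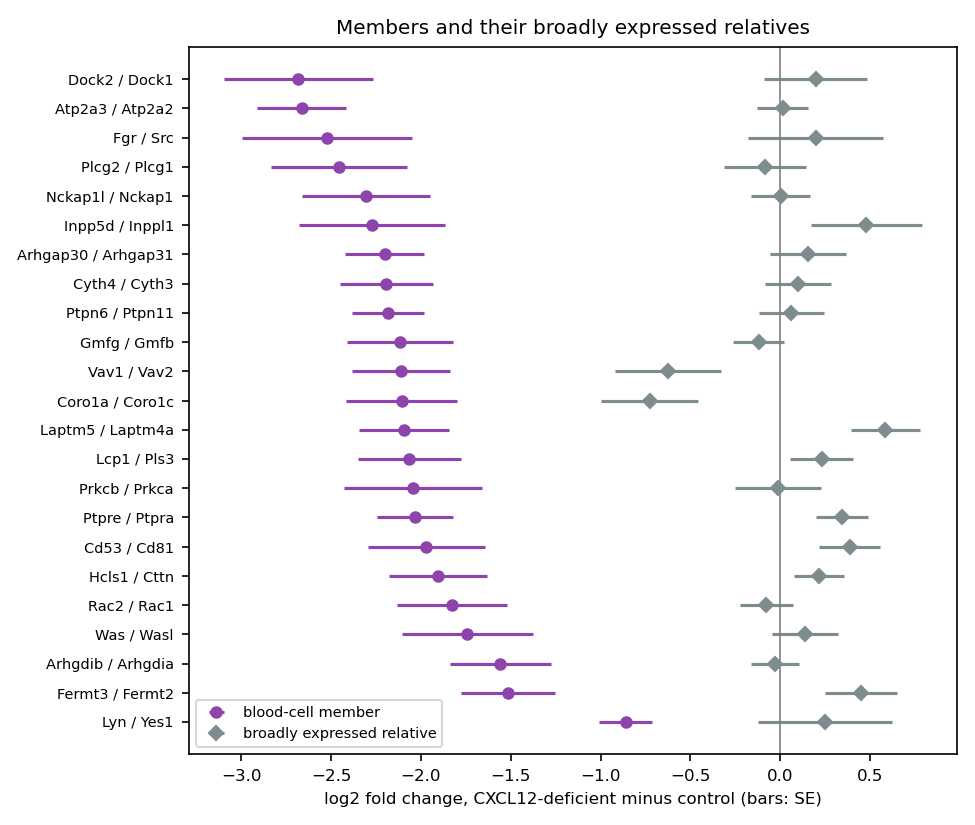
Log2 fold change with its SE for each of 23 leukocyte genes (purple circles) and its broadly expressed relative (grey diamonds). The purple points run from -2.68 to -0.86 and the grey points from -0.73 to 0.59.

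Pairs of GTPases and their partners show the pattern in single libraries. Rac1, the Rac of all cells, had 538, 459 and 546 CPM in CXCL12-deficient libraries and 549.7, 543 and 535 CPM in controls, a log2 fold change of -0.08 ± 0.15. In GENCODE M21, 2309 of the 4496 exonic bases of Rac1 are shared with Daglb on the opposite strand. Without a stated strand setting, reads there cannot be told apart. Arhgdia, the broad partner of Arhgdib, had 313, 350.2 and 317 CPM in CXCL12-deficient libraries and 335, 329 and 335 CPM in controls (-0.03 ± 0.14). Dock1 had 20.3, 18.7 and 32.7 CPM in CXCL12-deficient libraries and 27.3, 16.6 and 18.6 CPM in controls (0.20 ± 0.29). In these 3 pairs the relative's libraries overlapped between the groups, while those of Rac2, Arhgdib and Dock2 did not. Vav2 differed from these 3 relatives, since its groups did not overlap and it was lower in each CXCL12-deficient library, as Vav1 was. It had 5.08, 8.199 and 7.73 CPM in CXCL12-deficient libraries and 9.75, 10.6 and 12.1 CPM in controls (-0.62 ± 0.29, adjusted p = 0.29 by edgeR).

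Actin-binding relatives included the lowest log2 fold change of the 23. Coro1c had 49.5, 108 and 61.9 CPM in CXCL12-deficient libraries and 127, 106 and 130.4 CPM in controls (-0.73 ± 0.27, adjusted p = 0.18 by edgeR). It was called lower only without CXCL12-deficient replicate 2, its highest library of that group, where the adjusted p by edgeR was 0.028. Pls3, the plastin of solid tissues, had 154, 118 and 164 CPM in CXCL12-deficient libraries and 134, 131 and 106 CPM in controls (0.23 ± 0.17). Fermt2, the kindlin of adherent cells, had 282, 241 and 384 CPM in CXCL12-deficient libraries and 229, 244 and 191 CPM in controls (0.45 ± 0.20). Neither was called.

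Laptm4a, a lysosomal membrane protein, had the highest log2 fold change of the relatives. It had 1408, 1065 and 1239 CPM in CXCL12-deficient libraries and 926, 882 and 663 CPM in controls (0.59 ± 0.19, adjusted p = 0.14 by edgeR). The tetraspanin Cd81 had 659.5, 612 and 766 CPM in CXCL12-deficient libraries and 561, 558 and 439.5 CPM in controls (0.39 ± 0.17). Ptpra, the partner of Ptpre, had 277, 267 and 318 CPM in CXCL12-deficient libraries and 206, 231 and 242 CPM in controls (0.34 ± 0.15). All 3 were higher in each CXCL12-deficient library than in each control library without passing the test. Ptpn11, or SHP-2, had 29.0, 31.7 and 31.97 CPM in CXCL12-deficient libraries and 34.1, 26.7 and 27.9 CPM in controls (0.06 ± 0.18).

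For 4 further relatives the libraries of the groups overlapped. Atp2a2, the widespread calcium pump, had 152, 142 and 169 CPM in CXCL12-deficient libraries and 163, 148 and 147 CPM in controls (0.01 ± 0.14). Yes1, a Src-family kinase of most tissues, had 16.9, 10.3 and 31.8 CPM in CXCL12-deficient libraries and 18.6, 16.7 and 14.3 CPM in controls (0.25 ± 0.37). Plcg1 had 23.0, 27.5 and 35.6 CPM in CXCL12-deficient libraries and 32.02, 24.1 and 35.1 CPM in controls, and Prkca had 18.7, 30.5 and 30.7 CPM in CXCL12-deficient libraries and 29.7, 23.3 and 27.5 CPM in controls.

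Levels of partners were compared per length, as mean CPM per kilobase of merged GENCODE M21 exons. In 7 of the 23 pairs the leukocyte gene was the higher one in CXCL12-deficient libraries, and in 17 it was in controls. The order of the means differed between the groups in 10 pairs, several of them near ties in controls, such as Was and Wasl with 6.94 and 6.88 CPM per kilobase. Within single libraries, an order looked at after seeing the data, the leukocyte gene was the higher one in all 3 CXCL12-deficient libraries in 4 pairs and in all 3 controls in 11. Those 4 were Coro1a, Vav1, Ptpn6 and Lyn. In 3 pairs, of Gmfg, Lcp1 and Inpp5d, it was the lower one in every CXCL12-deficient library and the higher one in every control library. Since 1 side of each pair was chosen with this contrast known, nothing is read from these changes of order. Lcp1 and Pls3 had mean levels of 11.7 and 34.3 CPM per kilobase in CXCL12-deficient libraries and of 48.8 and 29.2 in controls. Rac2 was below Rac1 in every CXCL12-deficient library and also in control replicate 1. Merged exon lengths count every annotated transcript and also bases shared with other genes, as for Rac1, so these levels are approximate.

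A further list held 85 genes of leukocyte signalling and actin control outside the set, written down by role with earlier results of these data known and not picked for how they moved. Of the 83 that were matched, 34 were called lower by edgeR and 0 higher, beside 3.94% and 0.639% of all tested genes, with 61 lower and 1 higher at an unadjusted p below 0.05. Their median log2 fold change was -1.56 and 78 were negative. DESeq2 called 51 lower and 1 higher (Dok1), and limma-voom 35 lower and 0 higher. The count of 34 was 9 without control replicate 2 and 4 without control replicate 3. Part of the list is also used by stromal cells.

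Among phosphatases 3 of 6 were called lower, which were Ptpro at -2.84 ± 0.47 (adjusted p = 0.015, edgeR), Ptpn18 at -2.16 ± 0.37 (adjusted p = 0.016) and Ptprcap, the partner protein of CD45, at -1.89 ± 0.41 (adjusted p = 0.036). Ptprcap has 1611 exonic bases in GENCODE M21, and its overlaps with Coro1b and Rps6kb2 add up to 1656 bases. Its reads may thus belong to these genes. Of 18 adaptors 5 were called lower. Sla, which dampens receptor signals in lymphocytes, had 15.3, 11.8 and 6.39 CPM in CXCL12-deficient libraries against 33.6, 78.2 and 60.9 CPM in controls (-2.36 ± 0.39, adjusted p = 0.013, edgeR). Grap (-2.34 ± 0.44), Dok3 (-1.93 ± 0.41) and Pstpip1 (-1.88 ± 0.23) had adjusted p of 0.021, 0.034 and 0.0055 by edgeR, and Pstpip1 was called in all 6 refits that left out 1 library, Sla in 4, Grap in 3 and Dok3 in 2. Among the phosphatases Ptpro was called in 5 of them, Ptpn18 in 4 and Ptprcap in 3. Of the 18 adaptors 3 had a positive log2 fold change. Chosen after its values were seen, Dok1, an inhibitory adaptor, had 55.1, 77.5 and 64.6 CPM in CXCL12-deficient libraries against 41.8, 37.9 and 44.6 CPM in controls (0.67 ± 0.18, adjusted p = 0.071, edgeR).

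Of 15 kinases and lipid enzymes 8 were called lower. Pik3cg and Pik3r6, a catalytic and a regulatory subunit of the phosphoinositide 3-kinase gamma of leukocytes, had log2 fold changes of -2.58 ± 0.53 and -2.47 ± 0.57 (adjusted p = 0.030 and 0.046, edgeR). Blk, a Src-family kinase of B cells, had 2.75, 8.42 and 6.48 CPM in CXCL12-deficient libraries against 16.0, 28.9 and 49.1 CPM in controls (-2.41 ± 0.49, adjusted p = 0.028, edgeR). Each of these 3 kept its call in 2 of the 6 refits.

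GTPase regulators outside the set were called lower in 7 of 19 cases. They included Tagap (-2.80 ± 0.59, adjusted p = 0.032, edgeR), Rasal3 (-2.18 ± 0.39, adjusted p = 0.018), Arhgap45 (-2.17 ± 0.38, adjusted p = 0.017) and Arhgap9 (-1.89 ± 0.34, adjusted p = 0.018). Arhgap45, listed under its older symbol Hmha1, had 55.1, 45.5 and 18.7 CPM in CXCL12-deficient libraries against 138, 156 and 242 CPM in controls. Tagap was called in 2 of the 6 refits, Rasal3 in 3, and Arhgap45 and Arhgap9 in 4 each.

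Of 14 actin genes 5 were called lower, which were Myo1f and Myo1g, motor proteins of blood cells (-2.12 ± 0.33 and -1.73 ± 0.28, adjusted p = 0.012 for each, edgeR), Capg (-1.70 ± 0.32, adjusted p = 0.021), Parvg (-1.66 ± 0.30, adjusted p = 0.018) and, added after its values were seen, Cotl1 (-1.40 ± 0.19, adjusted p = 0.0078). Myo1f had 46.7, 35.7 and 20.6 CPM in CXCL12-deficient libraries against 97.8, 157 and 194 CPM in controls. Myo1f was called in 5 of the 6 refits, Myo1g in 4, Parvg and Capg in 3 each and Cotl1 in all 6. The remaining actin genes, none of them called by edgeR, ran from -0.80 ± 0.23 for Twf2, which binds actin monomers, to -0.11 ± 0.23 for Evl.

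Among the other membrane proteins 6 of 11 were called lower. Evi2a and Evi2b, neighbouring genes of leukocyte membrane proteins, had log2 fold changes of -2.28 ± 0.41 and -2.02 ± 0.25 (adjusted p = 0.018 and 0.0055, edgeR). In GENCODE M21, 1831 of the 1858 exonic bases of Evi2b and 442 of the 2297 of Evi2a are shared with Evi2 on the same strand. Reads of these bases cannot be told apart. Selplg, the ligand that leukocytes use to roll on selectins, had 39.0, 41.6 and 24.5 CPM in CXCL12-deficient libraries against 115, 136 and 156 CPM in controls (-1.96 ± 0.23, adjusted p = 0.0055, edgeR), and Cd84 was at -1.72 ± 0.24 (adjusted p = 0.0098). Selplg and Evi2b were called in all 6 refits that left out 1 library, Cd84 in 5 and Evi2a in 4. Chosen after its values were seen, Cd47, a membrane protein found on nearly all cells, had a log2 fold change of 0.06 ± 0.15.

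**Figure D5:**
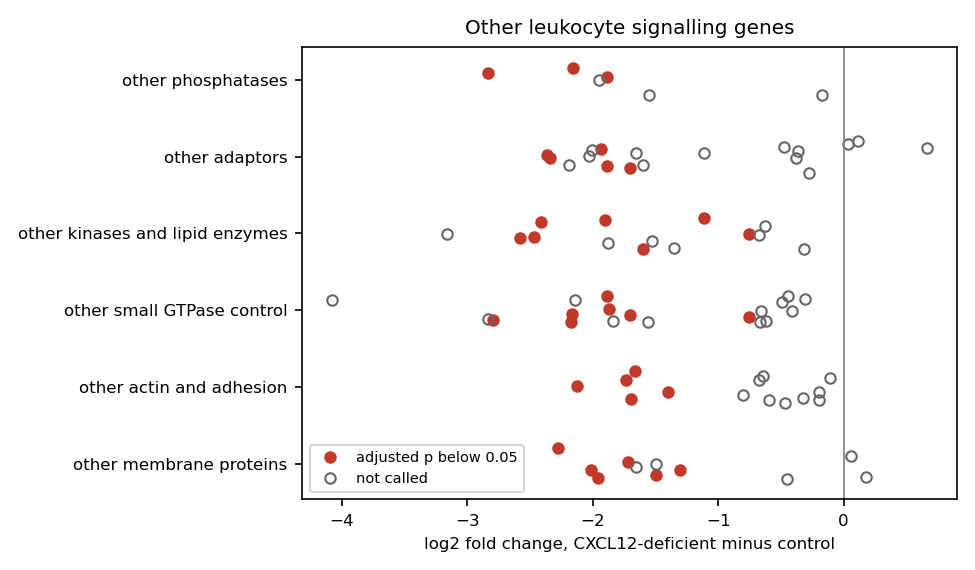
Log2 fold changes of further leukocyte signalling and actin genes by role, 1 point per gene, filled where the adjusted p of edgeR was below 0.05 and open otherwise. The filled points all lie below 0, and 1 called gene of the list is not drawn.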

How the data were processed

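RNA was sequenced from 3 CXCL12-deficient and 3 control libraries, numbered within a group in accession order. The authors deposited whole-number counts per gene, not normalized. Per the submitters' processing notes the tools were HTSeq, DESeq2, FastQC, Cuffdiff, Cufflinks, Bowtie2 2.2.1 and TopHat2 2.0.13, and the build was mm10. Annotation, strand setting and treatment of shared reads were not given in the sources used here, and overlapping genes are uncertain. Of the 38 genes, 10 share exonic bases with another named gene. Genes whose symbols begin with Gm were left out of that count. Deposited depth-normalized and log2 tables were not used.

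The 4 exon entries of Cxcl12 were summed, leaving 17128 of 17131 entries. filterByExpr (minimum count 10, minimum total 15) kept 13926 genes. Groups were compared with edgeR 4.0.16 (R 4.3.3), using its quasi-likelihood F-test with robust shrinkage, TMM factors and Benjamini-Hochberg adjustment over all tested genes at 0.05. CPM are TMM-scaled, and SEs come from the F statistic. Alternatives were DESeq2 1.42.0, limma-voom 3.58.1, other factors and filters, a stricter threshold and leaving out each library. Symbols were matched directly or through RefSeq synonyms: 38 of 39 genes of the set, 23 of 23 relatives, 83 of 85 further genes and 96 of 101 markers.

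The genes of the set and all lists were chosen with earlier results of these data known. Values by library are given for the 3 genes of each role with the highest mean CPM and the 3 with the largest and smallest log2 fold changes, for their relatives, and for some further genes of the set. From the further list up to 4 called genes per role were named, except 1 that is not reported here. In a simulated comparison of 13645 genes, the test called 101 genes, 6 of them falsely, and found 0% of 1.5-fold, 35.4% of 2-fold, 84% of 4-fold and 73.5% of 8-fold changes.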

Additional observations from a re-analysis of the deposited data

How the results depend on the processing

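The counts below are numbers of genes called, and the leave-out ranges are their lowest and highest values. With DESeq2's own test 989 of all genes were called lower and 302 higher, against 548 and 89 with edgeR, and 1 further leukocyte gene, 1 relative and 5 markers were called higher. At an adjusted p below 0.01 edgeR called 79 of all genes lower and 1 higher, 14 genes of the set, 5 further leukocyte genes and 8 markers lower, and 0 markers higher. With 1 library left out, 74 to 530 of all genes were called lower and 0 to 76 higher, 13 to 35 genes of the set lower, 4 to 34 further leukocyte genes lower, 0 to 1 relatives lower, 8 to 26 markers lower and 0 to 6 markers higher. The low ends fell to refits without control replicate 3, except for relatives and for markers called higher, where other refits shared them. The cause was not tested. The median log2 fold change of the set ran from -2.29 to -1.89 over these refits, that of the further genes from -1.81 to -1.33, and that of the relatives from -0.005 to 0.19. Other factors and filters, limma-voom and fits without robust shrinkage kept each of these counts within 1.5 times. No paired analysis was possible because the labels give the libraries no replicate numbers, litters or batches. With 3 libraries a group, an exact permutation test of 1 value cannot give a p below 0.1.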
